A study of Mus musculus with 6 samples.

Results

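Chromatin accessibility was followed at 10 genes that restrain or mark the circadian clock, namely Per1, Per2, Cry1, Cry2, Ciart, Nr1d1, Nr1d2, Dbp, Bhlhe40 and Bhlhe41, in the mouse glioma line GL261 under normoxia and under moderate and severe hypoxia. The genes were taken from a list, out of 55413 genes in the GENCODE M21 annotation of mm10, and their peaks were all those in the gene body or within 20 kb of it. By this rule 55 of the 41308 consensus peaks of the experiment belonged to the 10 loci, and 40 of the 55 were present in all 6 libraries. GL261 cells in every group stably expressed pEGFP-N1, a green fluorescent protein vector, and were held for 16 h at 21% O2 (normoxia), 1% O2 (moderate hypoxia) or <0.1% O2 (severe hypoxia), then fixed with formaldehyde before lysis, with 2 ATACseq libraries for each condition. All 6 libraries came from a single cell line and the labels do not say whether replicates were separate cultures, so the spread between them may be technical. In these bulk samples, a site open in fewer cells and a site less open in each cell cannot be told apart. In ATACseq a transposase cuts open DNA, and a peak is a region with more fragments than its surroundings. The authors ran peak calling library by library, and fragments and background at each summit were recovered from the deposited fold and p-value.

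The mammalian clock is a feedback loop of transcription. CLOCK and BMAL1 bind E-boxes in the promoters of their targets, among them the Per and Cry genes, whose proteins come back to repress CLOCK and BMAL1. Ciart (CHRONO) and the paralogues Bhlhe40 (DEC1) and Bhlhe41 (DEC2) also repress at E-boxes, Nr1d1 and Nr1d2 encode the nuclear receptors REV-ERB alpha and beta, which repress through ROR elements, and Dbp encodes an output activator that binds D-boxes. Bhlhe40 is in addition a well-known target of hypoxia-inducible factor (HIF) in many cell types.

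Sequences that hold the words of this circuit in open chromatin are shown first. The RefSeq promoter table (GRCm38.p6, the assembly of mm10) held 300-base windows for 8 of the 10 genes, and Bhlhe40 and Per2 had none. The 4 promoters below lay whole inside a peak of their gene, at chr3:95882179-95882478 (Ciart), chr10:85185005-85185304 (Cry1), chr6:145865371-145865670 (Bhlhe41) and chr11:98775328-98775627 (Nr1d1), all read 5′ to 3′ on the minus strand, and capitals mark the E-box CACGTG or the E′-box CACGTT on either strand.
Ciart promoter: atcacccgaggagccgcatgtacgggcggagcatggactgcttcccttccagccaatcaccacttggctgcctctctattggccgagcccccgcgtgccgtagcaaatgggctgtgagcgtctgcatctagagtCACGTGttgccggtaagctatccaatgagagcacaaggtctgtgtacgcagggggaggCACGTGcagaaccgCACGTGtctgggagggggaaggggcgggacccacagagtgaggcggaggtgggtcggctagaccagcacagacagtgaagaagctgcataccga
Cry1 promoter: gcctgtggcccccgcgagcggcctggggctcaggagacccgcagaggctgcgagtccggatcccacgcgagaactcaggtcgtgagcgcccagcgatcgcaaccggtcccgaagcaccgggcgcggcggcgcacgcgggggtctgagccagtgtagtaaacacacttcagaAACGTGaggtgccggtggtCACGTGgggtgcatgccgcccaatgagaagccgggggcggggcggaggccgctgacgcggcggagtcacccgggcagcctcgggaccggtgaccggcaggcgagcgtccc
Bhlhe41 promoter: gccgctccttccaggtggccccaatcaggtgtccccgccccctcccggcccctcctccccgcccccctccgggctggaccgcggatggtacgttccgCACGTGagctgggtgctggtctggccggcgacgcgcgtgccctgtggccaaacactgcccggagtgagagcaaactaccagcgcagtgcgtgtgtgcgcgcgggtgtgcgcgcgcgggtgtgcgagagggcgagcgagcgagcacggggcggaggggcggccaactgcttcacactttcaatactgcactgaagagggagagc
Nr1d1 promoter: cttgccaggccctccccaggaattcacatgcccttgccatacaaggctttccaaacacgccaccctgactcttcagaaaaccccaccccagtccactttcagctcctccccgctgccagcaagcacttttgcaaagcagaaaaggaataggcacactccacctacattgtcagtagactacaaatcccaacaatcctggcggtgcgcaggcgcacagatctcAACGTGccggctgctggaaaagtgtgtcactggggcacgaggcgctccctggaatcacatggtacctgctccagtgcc
The Ciart promoter held 3 E-boxes, the Cry1 promoter 1 E-box and 1 E′-box, the Bhlhe41 promoter 1 E-box and the Nr1d1 promoter 1 E′-box. Of the 8 member genes with a window, 4 held the E-box (Bhlhe41, Ciart, Cry1 and Per1), and 7.15% of all 32851 RefSeq promoter windows did.

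The 4 peaks outside promoters that were called higher at both hypoxia levels by both measures used below, and a Cry1 intron peak gained at <0.1% O2, are shown next, as 300 bases of GRCm38.p6 centred on the summit and read on the plus strand. They lay at chr6:108677796-108678095 (17.3 kb from the Bhlhe40 start), chr11:98750846-98751145 and chr11:98763197-98763496 (24.3 and 12.0 kb from the Nr1d1 start, both in introns of the neighbouring gene Thra), chr11:69078898-69079197 (upstream of Per1, at -16.2 kb) and chr10:85161763-85162062 (an intron of Cry1, at 23.2 kb). No exon overlapped these windows. Capitals mark the HIF core (ACGTG or GCGTG, which the E-box also contains), the AP-1 word (TGANTCA) and the core of the ROR element (TAGGTCA or TGGGTCA), each on either strand.
Bhlhe40 +17.3 kb: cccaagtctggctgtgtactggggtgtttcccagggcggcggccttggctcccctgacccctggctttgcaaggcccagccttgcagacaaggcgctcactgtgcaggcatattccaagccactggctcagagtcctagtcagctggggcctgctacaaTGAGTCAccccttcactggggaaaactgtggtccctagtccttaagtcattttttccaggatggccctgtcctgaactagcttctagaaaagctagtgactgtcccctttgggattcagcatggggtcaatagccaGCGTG
Nr1d1 +24.3 kb: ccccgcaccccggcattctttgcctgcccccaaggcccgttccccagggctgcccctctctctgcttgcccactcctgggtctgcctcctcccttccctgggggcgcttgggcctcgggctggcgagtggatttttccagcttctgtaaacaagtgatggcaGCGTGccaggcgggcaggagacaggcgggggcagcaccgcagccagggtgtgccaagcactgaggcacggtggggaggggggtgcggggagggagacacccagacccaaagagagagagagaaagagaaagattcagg
Nr1d1 +12.0 kb: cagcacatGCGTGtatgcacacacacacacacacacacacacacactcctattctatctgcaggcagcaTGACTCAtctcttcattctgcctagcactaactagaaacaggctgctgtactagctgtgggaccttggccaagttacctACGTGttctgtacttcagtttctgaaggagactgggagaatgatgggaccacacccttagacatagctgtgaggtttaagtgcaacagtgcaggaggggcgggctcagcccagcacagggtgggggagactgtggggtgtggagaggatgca
Per1 -16.2 kb: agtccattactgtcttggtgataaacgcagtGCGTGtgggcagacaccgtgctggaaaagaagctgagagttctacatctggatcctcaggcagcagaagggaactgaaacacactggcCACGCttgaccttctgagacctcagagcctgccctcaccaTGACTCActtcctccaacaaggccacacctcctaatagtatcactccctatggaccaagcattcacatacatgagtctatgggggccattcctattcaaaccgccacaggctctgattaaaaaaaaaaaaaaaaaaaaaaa
Cry1 +23.2 kb: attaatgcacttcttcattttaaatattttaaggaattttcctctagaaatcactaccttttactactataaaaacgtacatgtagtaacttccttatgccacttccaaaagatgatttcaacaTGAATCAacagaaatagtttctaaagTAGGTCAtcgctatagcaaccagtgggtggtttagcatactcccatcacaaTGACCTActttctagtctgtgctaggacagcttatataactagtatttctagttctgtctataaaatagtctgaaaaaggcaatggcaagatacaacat
All of these but the Cry1 intron held a HIF core, and all but the Nr1d1 +24.3 kb peak held an AP-1 word. The Cry1 intron peak, found in hypoxic libraries only, held 2 copies of the ROR element core, the word that Nr1d1 and Nr1d2 read.

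Over all peaks of the loci, the E-box was more frequent in member promoters than in open promoters at large. It was found in 7 of 16 member promoter windows (43.8%), against 9.43% of 15064 promoter windows of all genes, and in 4 of 21 member windows outside any promoter (19.0%), against 4.59% of 26244. The promoter windows with it belonged to Per1 (2 peaks), Nr1d1, Ciart, Bhlhe40, Bhlhe41 and Dbp. The D-box (TTATGTAA or TTACGTAA) was found in the windows of Per2 and Nr1d1, 2 of 16 against 0.564%, and the cAMP response element TGACGTCA in 1, the Per1 peak at 1.92 kb, against 2.96%. The HIF core was present in 13 of 16 promoter windows against 60.4%, and in 11 of 21 others against 31.8%. AP-1 words were found in none of the 16 promoter windows, against 11.1%, and in 7 of 21 others, 33.3% against 34.7%. The E′-box was in 3 of 16 (5.32% of all) and in 1 of 21 (4.51%), and the ROR element core in 1 of 16 (5.17%), Dbp, and 1 of 21 (7.85%). Matches of letters are descriptions of the window and do not show binding.

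Some facts of the libraries bear on every value below. The hypoxic libraries were deeper than the normoxic ones, with a mean genome coverage of 2.16 and 2.36 fragments in normoxia against 2.93 to 3.35 in hypoxia. Pileups are therefore also given divided by that coverage (normalised pileup). The median log2 change of the normalised pileup over all 28432 ranked peaks was 0.13 at 1% O2 and -0.16 at <0.1% O2. Peaks were compared by percentile rank, within the 28432 peaks found in every library, of the deposited fold over local background (fold rank) and of the summit pileup (pileup rank). To be called higher or lower, a peak had to have each hypoxic library outside the range of the normoxic pair on the same side, with a mean shift of 10 percentile points or more. A peak within 10 points of the bottom of the scale in normoxia could therefore not be called lower, nor one within 10 points of the top higher. With 2 libraries against 2 a two-sided exact permutation test cannot give a p under 0.33, so no p-value is given, and both hypoxia levels were compared with the same normoxic libraries. All 7 glial or glioma marker genes examined (Vim, Nes, Sox2, Cd44, Gfap, Olig2 and S100b) had a promoter peak in all 6 libraries, of which 2 were called lower by fold rank at 1% O2 (16.5% of all promoter peaks) and 4 at <0.1% O2 (26.5%), where 1 was higher and the median change was -10.2 points, while Ptprc, Rbfox3 and Aif1, which mark leukocytes, neurons and microglia, had none and the endothelial marker Pecam1 had one in 5.

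At promoters, Bhlhe40 and Bhlhe41 had peaks called lower by fold rank, and Cry1 and Nr1d2 had peaks called higher at <0.1% O2, while by pileup rank Nr1d1 and Ciart also had peaks called higher. At 1% O2, 2 of the 14 ranked member promoter peaks were called lower by fold rank, against 16.5% of all 12959 ranked promoter peaks, and 0 were called higher, against 11.9%. At <0.1% O2, 1 of 14 was called lower, where 26.5% of all promoter peaks were, and 2 were called higher, where 12.0% of all were. By pileup rank the counts were 2 lower (16.5% of all) and 1 higher (11.8%) at 1% O2, and 1 lower (32.0%) and 3 higher (10.2%) at <0.1% O2. The peaks at Cry1 1.22 kb, Per1 1.92 kb and Dbp 2.66 kb, with normoxic fold ranks of 2.37, 3.24 and 1.26, had no room for a called fall. The strongest promoter peaks of Per1 (94.5), Nr1d1 (94.9), Nr1d2 (99.8), Cry1 (93.0) and Bhlhe40 (91.1) had none for a called rise of pileup rank. The share of such peaks among all promoter peaks is not given here. The median change of the fold rank over the 14 was -1.10 points at 1% O2, beside -0.96 over all promoter peaks, and -0.38 at <0.1% O2, beside -2.52. The median pileup rank change at <0.1% O2 was 4.03 points for the members and -3.86 for all promoter peaks. These 14 had passed the requirement of a peak in every library, and 2 further member promoter peaks, of Per1 and Bhlhe41, had not.

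**Figure D1:**
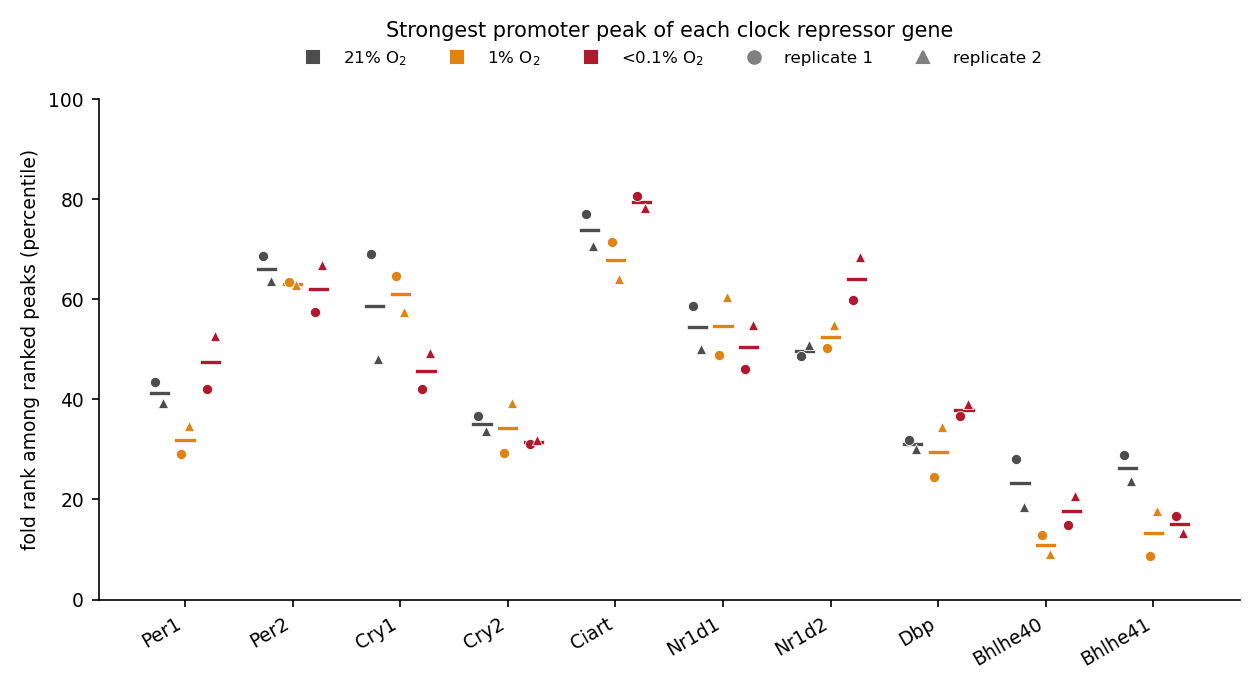
Fold rank (percentile within the ranked set of a library) of the strongest promoter peak of each of the 10 genes, with a circle for replicate 1, a triangle for replicate 2 and a bar for the mean of each condition. Bhlhe40 and Bhlhe41 hold the lowest ranks, and at 1% O2 both of their libraries lie below both normoxic ones, while Ciart is highest in every condition.

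The promoters kept a wide order of fold rank in normoxia. Ciart was highest, with a mean rank of 73.9 ± 4.52 (SD, n = 2), followed by Per2 at 66.2 ± 3.47, Cry1 at 58.6 ± 14.9, Nr1d1 at 54.4 ± 6.10, Nr1d2 at 49.7 ± 1.51, Per1 at 41.4 ± 3.01, Cry2 at 35.2 (36.7 and 33.7 in its libraries), Dbp at 31.0 ± 1.27, Bhlhe41 at 26.3 ± 3.71 and Bhlhe40 at 23.3 ± 6.66. The libraries overlapped between the neighbours Per2 and Cry1, Cry1 and Nr1d1, Nr1d1 and Nr1d2, and Bhlhe41 and Bhlhe40, so these could not be put in order. Bhlhe40 and Bhlhe41 held the last places by fold rank in all 3 conditions. The order by pileup rank was another one. In normoxia Nr1d2 was highest, at a mean of 99.8, Bhlhe40 stood at 91.1, above Dbp (87.5), Cry2 (86.9), Ciart (74.4) and Per2 (73.6), and Bhlhe41 was lowest at 46.1.

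The promoter of Bhlhe40, the E-box repressor and HIF target, lost height against other peaks. Its peak on chr6:108659224-108660849, with the summit at -0.207 kb, also lay at a start site of 0610040F04Rik. The normalised pileup was 85.2 and 101 in normoxia, 69.3 and 51.1 at 1% O2 and 52.3 and 48.7 at <0.1% O2. All 4 hypoxic libraries lay below both normoxic ones, and the log2 change was -0.64 ± 0.25 (SE, n = 2 libraries a group) at 1% O2 and -0.88 ± 0.13 at <0.1% O2, ratios of the means of 0.647 and 0.543. By fold rank it fell by 12.3 points at 1% O2 and was called lower, whereas the change at <0.1% O2, -5.52 points, was under the limit and not called. By pileup rank it was called lower at both levels, by -16.0 and -13.8 points. The call at 1% O2 was lost without normoxic replicate 1 (-9.57 points), within whole lists (-8.71 points) and with a -log10 q of at least 10 (-9.02 points), and without normoxic replicate 2 the change at <0.1% O2 was -11.0 points and called.

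The genes outside the clock lists whose strongest promoter peak moved most like that of Bhlhe40, by the Euclidean distance of the 6 centred fold ranks, were Phf19 (distance 1.88), Fscn1 (3.34) and Zfp954 (3.83).

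Downstream of Bhlhe40 a peak gained height in hypoxia. The peak at 17.3 kb from the start site had summit pileups of 33 and 48 in normoxia, 130 and 115 at 1% O2 and 134 and 78 at <0.1% O2. The normoxic and hypoxic libraries did not overlap, also after division by coverage (15.3 and 20.4, then 44.4 and 38.4, then 40.0 and 24.5). Its normalised pileup was 2.32 times the normoxic mean at 1% O2 and 1.81 times at <0.1% O2, and it was called higher by both ranks at both levels, with fold rank changes of 39.7 and 35.0 points. At 1% O2 only 340 of the 28432 ranked peaks had a larger rise of the fold rank. Leaving out each library in turn kept the change between 37.6 and 41.8 points at 1% O2 and between 27.8 and 42.5 at <0.1% O2.

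A second peak in the last part of the gene, in an exon at 5.10 kb, had normalised pileups of 45.8 and 57.7 in normoxia, 95.6 and 83.2 at 1% O2 and 83.9 and 72.9 at <0.1% O2. It was called higher by pileup rank at both levels (17.7 and 19.4 points) and by fold rank at <0.1% O2 (15.4 points). Its 300-base window held 2 AP-1 words and no E-box. Between these peaks, at 7.86 kb, the rule gave opposite readings. There the fold rank fell by 24.4 points at 1% O2 and 25.6 points at <0.1% O2, both called, while the pileup rank changed by 5.41 and 4.65 points. The local background in fragments under that summit was 12.1 and 16.8 in normoxia, 28.4 and 25.2 at 1% O2 and 29.6 and 23.8 at <0.1% O2. These backgrounds are not divided by coverage, and the hypoxic libraries were deeper. The ratio of the normalised pileup means at that summit was 1.23 at 1% O2 and 0.974 at <0.1% O2. What lowered the fold there was not tested. The normalised pileup at 7.86 kb overlapped between normoxic and <0.1% O2 libraries.

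**Figure D2:**
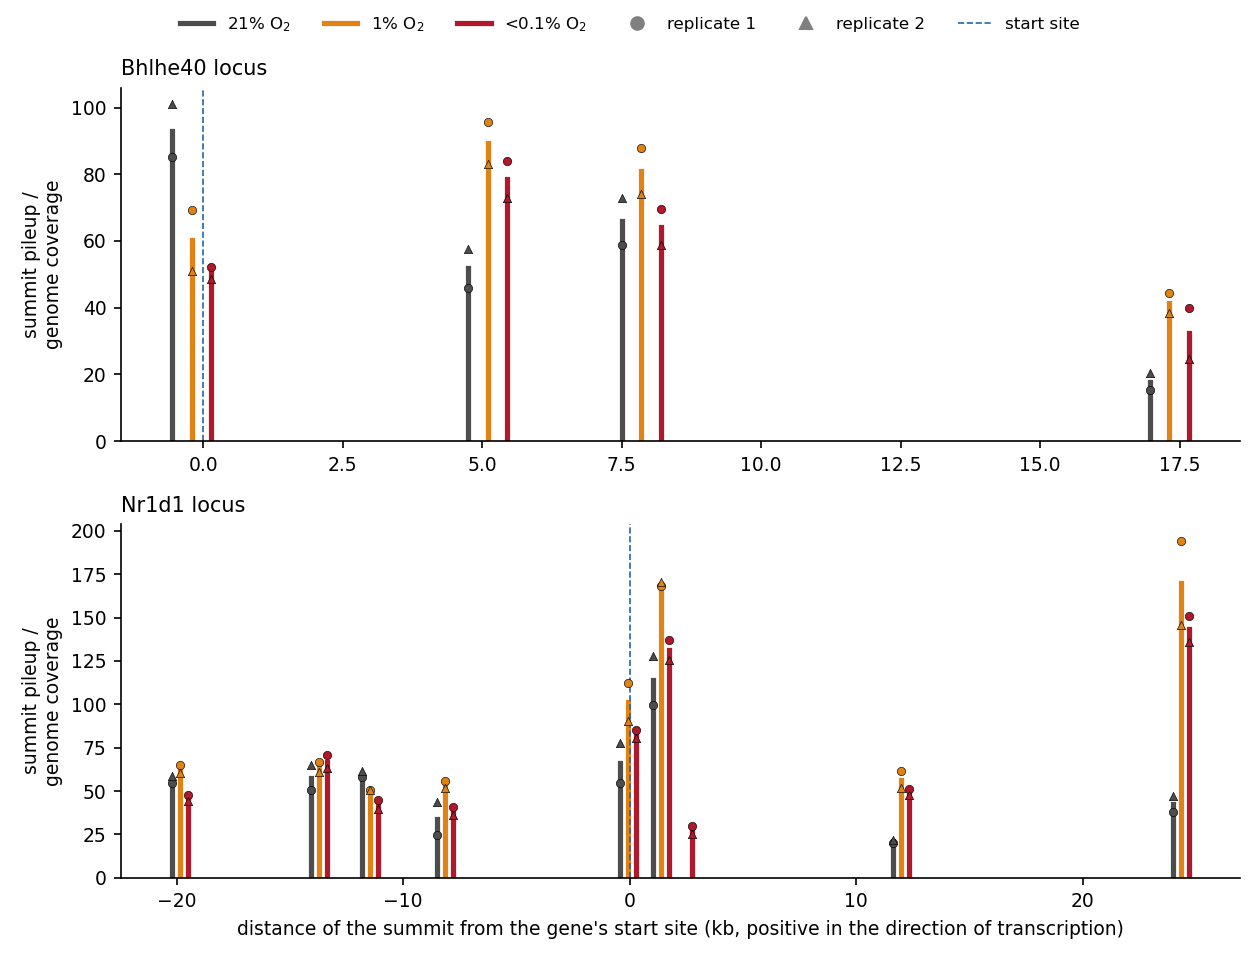
Normalised summit pileup of every peak of the Bhlhe40 and Nr1d1 loci against the distance of its summit from the start site in kb, with bars for the mean of each condition, set side by side around the summit, and symbols for the replicates present. At Bhlhe40 the promoter bar shrinks from 21% O2 to both hypoxia levels while those at 5.10 and 17.3 kb grow, and at Nr1d1 the largest rise is at 24.3 kb, from 42.5 to 170 and 144.

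Bhlhe41, the paralogue of Bhlhe40, also had a promoter peak that lost rank. The peak on chr6:145865318-145866847 had normalised pileups of 26.4 and 30.5 in normoxia, 22.5 and 25.4 at 1% O2 and 23.9 and 19.2 at <0.1% O2. Every hypoxic library lay below both normoxic ones, by a smaller margin than at Bhlhe40, with ratios of 0.842 and 0.757. The log2 changes were -0.25 at 1% O2 and -0.41 at <0.1% O2, beside medians of 0.10 and -0.36 over all ranked promoter peaks. At <0.1% O2 the fall was thus near that of promoters at large. The fold rank changes of -13.0 and -11.3 points were called lower at both levels, and the pileup rank was called at 1% O2 (-13.5 points) but not at <0.1% O2 (-8.79 points). The call at 1% O2 was lost without 1% O2 replicate 1 (-8.48 points), and that at <0.1% O2 without <0.1% O2 replicate 2 (-9.37 points) and when the GC trend was subtracted (-5.81 points). Ranking within whole lists ended both calls (-9.18 and -8.08 points), as did keeping peaks with a -log10 q of at least 10 (-9.97 and -9.15 points). A downstream peak at 9.56 kb, with 2 E-boxes in its window, was called higher at 1% O2 by fold rank (20.7 points) and not by pileup rank (9.49 points). A weak promoter peak at 2.33 kb was present in 5 of 6 libraries, missing from normoxic replicate 2.

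Per1 and Per2, the early feedback repressors, kept their main promoter peaks in all libraries. The Per2 promoter peak (chr1:91458009-91459959) had normalised pileups of 51.9 and 56.8 in normoxia, 76.9 and 65.5 at 1% O2 and 63.9 and 54.4 at <0.1% O2, with fold rank changes of -3.00 and -4.04 points that were not called. The Per1 promoter peak (chr11:69094568-69095460) had pileups of 216 and 287 in normoxia, 421 and 386 at 1% O2 and 488 and 441 at <0.1% O2. Also after division by coverage all 4 hypoxic values were above both normoxic ones. The fold rank changes of -9.48 and 6.07 points were not called. The pileup rank was not called either, but with a normoxic mean of 94.5 it had no room for a rise of 10 points. By fold rank the peak was called lower at 1% O2 without normoxic replicate 2 (-11.9 points) or 1% O2 replicate 2 (-12.2 points). It was called higher at <0.1% O2 without replicate 1 of that level (11.3 points). Subtracting the GC trend also gave a called fall at 1% O2 (-10.9 points), and ranking within whole lists a called rise at <0.1% O2 (10.3 points). The change of -9.48 was the nearest uncalled one among member promoter peaks with separated libraries, and the smallest called one in either level was 10.9 points, at Cry1.

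Outside promoters, the Per1 locus held a peak that rose, at -16.2 kb. Its pileups were 25 and 51 in normoxia, 95 and 91 at 1% O2 and 84 and 79 at <0.1% O2. The hypoxic libraries did not overlap the normoxic ones, and the log2 change of the normalised pileup was 0.99 ± 0.45 (SE) at 1% O2 and 0.66 ± 0.45 at <0.1% O2. It was called higher by both ranks at both levels, by 31.1 and 17.0 points of fold rank, although without normoxic replicate 1 the change at <0.1% O2 was 9.62 points and not called. A nearby peak at -14.8 kb was gained, absent in normoxia with pileups of 34 and 35 at 1% O2 and 32 and 32 at <0.1% O2. The downstream peak at 15.5 kb was called higher at <0.1% O2 by both ranks, but its pileups of 92 and 38 in these libraries were far apart, and in replicate 1 a single peak spanned it and the next peak at 16.8 kb, which was called lower at 1% O2 by pileup rank (-10.6 points). Without that replicate the change at 15.5 kb was 2.27 points and not called, and that at 16.8 kb was -21.4 points and called. With the GC trend subtracted, the change at 15.5 kb was 16.9 points and not called. Without <0.1% O2 replicate 2 both peaks fell into 1 consensus region, whose change of 4.23 points was not called, so the peak at 15.5 kb had no value of its own. In Per2 an intronic peak at 22.7 kb was absent in normoxia and had pileups of 30 and 39 at 1% O2 and 27 and 26 at <0.1% O2.

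Cry1 and Cry2, the partners of the PER proteins, differed between their peaks. The strongest Cry1 promoter peak (chr10:85184672-85186175) had normalised pileups of 95.4 and 108 in normoxia, 149 and 118 at 1% O2 and 76.2 and 74.5 at <0.1% O2. By this value the moderate hypoxia libraries exceeded both normoxic ones and the severe hypoxia libraries were under both. The fold rank was not called at either level. Its change was 2.48 points at 1% O2, and at <0.1% O2 it was -12.9 points with normoxic replicates that stood apart, at 69.1 and 48.1. Leaving out normoxic replicate 2 or <0.1% O2 replicate 2 gave called falls of -23.3 and -16.1 points at <0.1% O2, and leaving out normoxic replicate 1 a called rise of 11.8 points at 1% O2. A second, weaker promoter peak 1.22 kb into the gene was called higher at <0.1% O2 by fold rank (10.9 points) and pileup rank (15.6 points), and the first of these calls was lost when the GC trend was subtracted (6.95 points) and with a -log10 q of at least 10 (7.31 points). Its mean fold rank was low, 2.37 in normoxia and 13.2 at <0.1% O2. The normalised pileups overlapped, at 32.0 and 45.8 in normoxia and 48.1 and 45.6 at <0.1% O2. The Cry1 intron peak at 23.2 kb was gained at <0.1% O2, with pileups of 61 and 45, none in normoxia and 29 in 1% O2 replicate 1 only.

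The Cry2 promoter peak (chr2:92433634-92434605) was not called, with normalised pileups of 69.9 and 89.0, then 95.3 and 91.5, then 91.1 and 77.3. In an intron of Cry2, at 2.68 kb, where D930015M05Rik overlaps, the pileup rank rose by 22.1 points at <0.1% O2 and was called, with normalised pileups of 35.2 and 50.0 at 21% O2 and 69.9 and 55.9 at <0.1% O2, while the fold rank change of 8.48 points was under the limit. Upstream, the peak at -13.4 kb was called lower by fold rank at <0.1% O2 (-10.7 points) and not by pileup rank (-3.77 points), the rank of the -log10 q (-8.95 points) or with a -log10 q of at least 10 (-7.41 points). A peak at -8.77 kb was gained at 1% O2, with pileups of 55 and 36, and was in neither <0.1% O2 library.

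Nr1d1, the gene of REV-ERB alpha, had the largest rises of normalised pileup, as ratios to the normoxic mean, among the ranked peaks of all 10 loci, and they lay in introns of Thra, the thyroid hormone receptor gene whose 3′ end overlaps that of Nr1d1. The peak at 24.3 kb (chr11:98750424-98751520) had summit pileups of 82 and 111 in normoxia, 568 and 436 at 1% O2 and 506 and 433 at <0.1% O2. The 95% Poisson interval of the lowest hypoxic pileup, 393 to 476, lay above that of the highest normoxic one, 91.3 to 134, and such intervals cover counting error only. The normalised pileup was 3.99 and 3.38 times the normoxic mean, a log2 change of 1.99 ± 0.26 (SE, n = 2 libraries a group) at 1% O2 and 1.76 ± 0.17 at <0.1% O2. Of all 28432 ranked peaks, 23 rose more at 1% O2 and 33 at <0.1% O2. The fold rank rose less, by 13.8 and 33.6 points, and the background under the summit went from 8.41 and 11.1 fragments to 45.5 and 35.2 and to 37.9 and 31.4.

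The peak at 12.0 kb (chr11:98762805-98763704) had pileups of 43 and 52 in normoxia, 180 and 155 at 1% O2 and 172 and 151 at <0.1% O2. Its fold rank rose by 39.4 and 48.8 points and its normalised pileup to 2.70 and 2.36 times the normoxic mean. Leaving out each library in turn kept both Thra intron peaks called at both levels, with changes of at least 10.3 points. Since these peaks lie in Thra, which gene they act on was not tested.

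The promoter peaks of Nr1d1 itself were not called by fold rank. The strongest, 1.39 kb into the gene and holding 2 E-boxes and a D-box, had normalised pileups of 99.6 and 128 in normoxia, 168 and 171 at 1% O2 and 137 and 126 at <0.1% O2. The peak at the start site, at -0.091 kb, had 54.6 and 77.6, then 112 and 90.5, then 85.4 and 80.5, and was called higher by pileup rank at both levels (11.6 and 11.5 points). Upstream, the peak at -8.17 kb was called higher by pileup rank at both levels (19.1 and 14.3 points) and not by fold rank. Its normalised pileups were 24.5 and 43.7 in normoxia, 56.0 and 51.8 at 1% O2 and 40.9 and 36.5 at <0.1% O2. Those at <0.1% O2 lay within the normoxic pair. The peak at -13.7 kb was called higher by both ranks at <0.1% O2 (13.0 and 11.1 points), with 9.98 points of fold rank once the GC trend was subtracted. The peak at -11.5 kb went the other way without a call, from normalised pileups of 58.4 and 61.5 to 50.9 and 50.4 at 1% O2 and 44.8 and 39.9 at <0.1% O2. An intronic peak at 2.40 kb was present in both <0.1% O2 libraries alone, with low folds of 2.21 and 2.09 and pileups of 100 and 81.

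**Figure D3:**
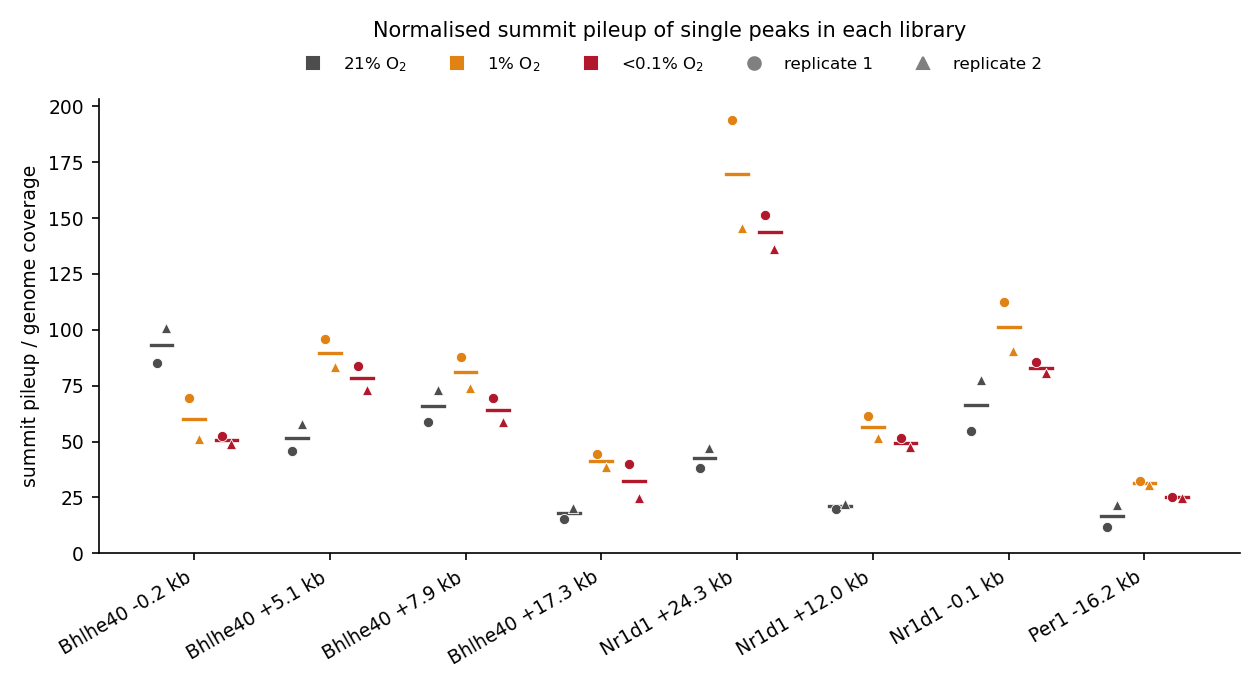
Summit pileup divided by the genome coverage for 8 peaks of Bhlhe40, Nr1d1 and Per1, named by the distance of the summit from the start site, with symbols for each library and bars for the mean of each condition. The Nr1d1 peak at 24.3 kb goes from 38.0 and 47.1 in normoxia to between 136 and 194 in hypoxia, and the Bhlhe40 promoter at -0.207 kb is the only one of the 8 whose hypoxic libraries all lie below both normoxic ones.

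Nr1d2, the gene of REV-ERB beta, had a single peak, at its promoter (chr14:18238153-18239625), and it was the highest of all member peaks. Its pileups were 400 and 698 in normoxia, 802 and 758 at 1% O2 and 693 and 668 at <0.1% O2. The fold rank was called higher at <0.1% O2 (14.4 points), but the pileup rank, already above 99 in every library, changed by -0.029 points and the normalised pileup ratio was 0.867. Without <0.1% O2 replicate 2 the fold rank change was 9.99 points and not called, and the rank of the -log10 q changed by 0.084 points.

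Dbp and Ciart, a D-box activator and an E-box repressor, were not called at their promoters by fold rank. Dbp (chr7:45704374-45705498) had normalised pileups of 74.6 and 87.3 in normoxia, 107 and 93.5 at 1% O2 and 89.6 and 74.5 at <0.1% O2, with fold rank changes of -1.55 and 6.86 points, the second of which was 11.6 points and called when ranked within whole lists. The second Dbp promoter peak, 2.66 kb into the gene, held 2 E-boxes and 1 E′-box and was weaker, with normalised pileups from 26.4 to 38.3 over the 6 libraries. Ciart (chr3:95881974-95883263), with its 3 E-boxes, had normalised pileups of 50.5 and 60.6, then 71.7 and 64.1, then 74.1 and 56.6. It was called higher at <0.1% O2 by pileup rank (11.3 points) and by the rank of the -log10 q (10.5 points), and not by fold rank. Its summit also lay in C920021L13Rik. The Ciart peak outside promoters, at 20.2 kb, was present in 5 of 6 libraries with pileups from 20 to 48.

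Of the 14 ranked peaks outside any promoter, 5 were called higher at 1% O2 by fold rank, against 20.6% of all 15473 such peaks, and 1 was called lower, against 20.2%. At <0.1% O2, 7 were called higher, against 25.5%, and 2 lower, against 14.5%. The peaks of Per1 at -16.2 and 15.5 kb (normoxic fold ranks of 9.54 and 2.87), Nr1d1 at -8.17 and -11.5 kb (2.37 and 7.34) and Cry2 at 2.68 kb (2.34) had no room for a called fall. By pileup rank 6 were called higher (20.2% of all) and 1 lower (17.4%) at 1% O2, and 9 higher (29.5%) and 0 lower (12.8%) at <0.1% O2. Their median fold rank change was 5.31 points at 1% O2 and 10.7 at <0.1% O2, beside -0.23 and 1.92 over all such peaks. The 14 are not independent, since 5 belonged to Nr1d1, 3 to Bhlhe40 and 3 to Per1. Their median GC content was 52.9%, against 59.5% in the 14 member promoter peaks.

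**Figure D4:**
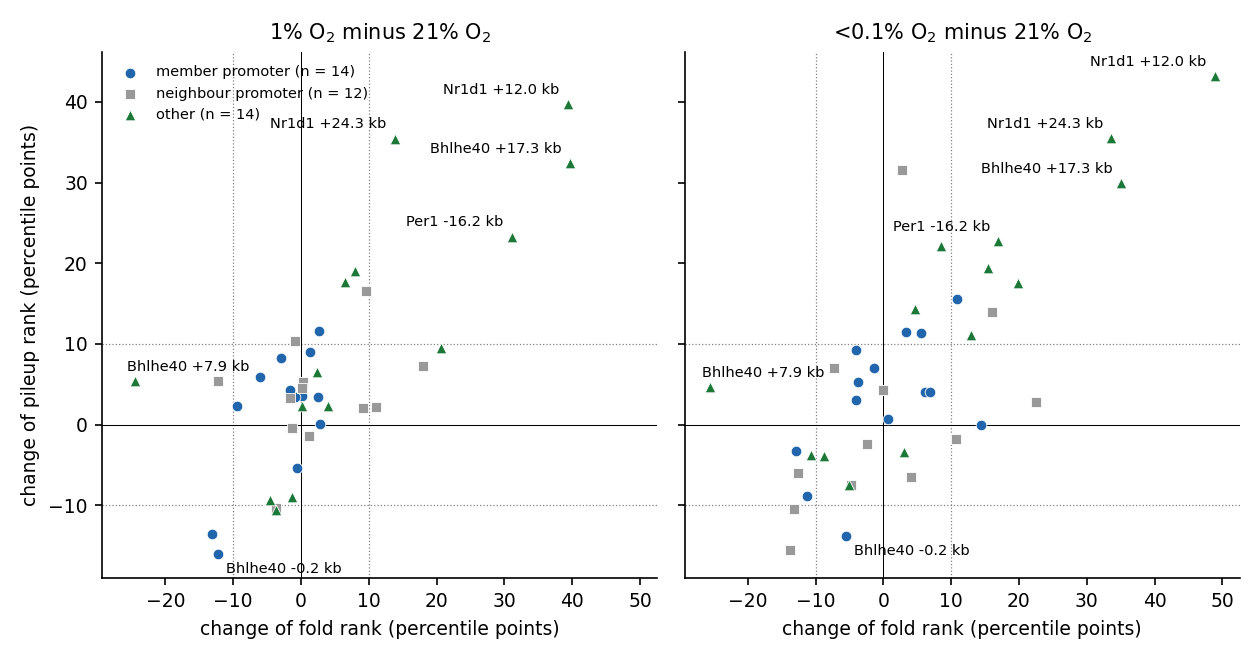
Change of the pileup rank against the change of the fold rank in percentile points for the 40 ranked peaks, at 1% O2 (left) and <0.1% O2 (right), with dotted lines at 10 points. Peaks outside promoters (triangles) reach 39.7 points in fold rank at 1% O2 and 48.8 at <0.1% O2, and member promoters (circles) lie between -13.0 and 14.4.

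Presence gave few further differences. Of the 55 member peaks, 6 were gained at 1% O2, that is, present in both hypoxic libraries and no normoxic one, against 10.6% of all 41308 consensus peaks, and 7 at <0.1% O2, against 10.1%. None was lost, 0 at 1% O2 (1.01% of all) and 0 at <0.1% O2 (1.52%). The share gained was thus near that of all peaks. Those gained at both levels were the Per2 intron, the Per1 peak at -14.8 kb, a peak at the Mapk8ip1 promoter in the Cry2 window and one at the Car11 promoter in the Dbp window. At 1% O2 a Per1 promoter peak at 3.66 kb (pileups of 177 and 143, and 159 in <0.1% O2 replicate 1) and the Cry2 peak at -8.77 kb were added, and at <0.1% O2 the introns of Cry1 and Nr1d1 and a Vamp2 promoter peak in the Per1 window. The folds at Per1 3.66 kb were low, 3.43 and 3.15 at 1% O2, over backgrounds of 50.9 and 44.7 fragments. The normoxic libraries were the shallowest, and when every list was cut to the length of the shortest 3 were gained at 1% O2 and 1 at <0.1% O2. How far depth accounts for the gains was not tested.

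Severe and moderate hypoxia can be set side by side at the peaks described in most detail. The normalised pileup means were 41.4 and 32.3 at Bhlhe40 17.3 kb, 170 and 144 at Nr1d1 24.3 kb, 56.6 and 49.4 at Nr1d1 12.0 kb, and 60.2 and 50.5 at the Bhlhe40 promoter, each at 1% and <0.1% O2. The median log2 change of all ranked peaks also went down, from 0.13 to -0.16. Less that median, the log2 changes in the same order were 1.10 and 0.99, 1.86 and 1.92, 1.30 and 1.40, and -0.77 and -0.72. The means alone therefore do not show that a change was smaller or larger in severe hypoxia. No test of the levels against each other was made.

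Other genes of the clock were examined at the promoter, from 17 genes that include the activators Clock, Arntl, Arntl2 and Npas2, Per3, the receptor genes Rora and Rorb, the D-box factors Nfil3, Tef and Hlf, the kinases Csnk1d and Csnk1e, the ubiquitin ligase genes Fbxl21, Btrc and Fbxw11, Timeless and Usp2. A ranked promoter peak was found for 16, Npas2 having none. By fold rank 4 of the 16 were called lower (16.5% of all promoter peaks) and 2 higher (11.9%) at 1% O2, and 2 lower (26.5%) and 2 higher (12.0%) at <0.1% O2. By pileup rank 1 was lower (16.5% of all) and 2 higher (11.8%) at 1% O2, and 8 were lower (32.0%) and 1 higher (10.2%) at <0.1% O2. Those called by both ranks were Csnk1e, higher at 1% O2 (a fold rank change of 22.9 points), Fbxl21, lower at both levels (-28.5 and -47.4 points), and Timeless, lower at <0.1% O2 (-11.3 points). The median pileup rank change of the 16 at <0.1% O2 was -10.1 points, beside 4.03 for the 14 member promoter peaks and -3.86 for all promoter peaks.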

How the data were processed

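ATACseq was measured in 6 libraries of GL261 cells, 2 at each of 21%, 1% and <0.1% O2. The authors trimmed reads with Trimmomatic, aligned them to mm10 with Bowtie2 2.2.5, removed duplicates with Picard and called peaks in each library with MACS2 2.1.1.2 at a q-value of 0.001. For each peak the deposited lists hold the ratio of the summit to local background (fold) and, each as -log10, the p-value and the q-value. Read counts over shared regions were not used here, and so neither was DESeq2, with which the authors compared conditions.

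Summit pileup and background were recovered from fold and p-value, for 100% of peaks. Consensus peaks joined stretches over 200 bp shared by both replicates of a condition, merged over conditions. Promoter peaks lay within 2000 bp of a start site. Every member was named with its strongest promoter peak by mean pileup, and other peaks where gained, lost, called by both ranks or strongest outside promoters. The call rule was also run on simulated data, and the outcome is not given here. The members and lists were chosen with earlier results of these data known, and 2 genes of the wider clock list are not reported here. The alternatives tried are listed in the closing section, and those for single peaks other than the strongest promoter peaks were chosen after seeing the data. Figures were drawn with matplotlib 3.10.9 and values computed with numpy 2.4.6, pandas 2.3.3, scipy 1.17.1 and pysam 0.24.0 under Python 3.11.15.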

Additional observations from a re-analysis of the deposited data

Results flagged for a closer look

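At a few member peaks both 1% O2 libraries lay on one side of both normoxic libraries and both <0.1% O2 libraries on the other, and the difference between the levels was not tested. By fold rank this held for the Per1 peak at 15.5 kb, with changes of -1.27 points at 1% O2 and 19.9 points at <0.1% O2, the second of which lost its call without <0.1% O2 replicate 1, and for the Dbp peak at 2.66 kb, with -0.53 and 0.68 points, both small. By normalised pileup, a comparison added after the Cry1 values were seen, it held for the main Cry1 promoter peak, with log2 changes of 0.39 and -0.43, and for the Cry2 peak at -13.4 kb, with 0.42 and -0.20, where <0.1% O2 replicate 1 and normoxic replicate 1 were both at 18.5 after rounding and so all but equal. It also held for promoter peaks of neighbouring genes, namely Ilkap in the Per2 window (0.26 and -0.44), Hes7 and 9130213A22Rik in the Per1 window (0.20 and -0.45), Msl1 in the Nr1d1 window (0.15 and -0.30) and Mir7000 in the Cry2 window (0.46 and -0.45). The median of all ranked peaks moved in the same directions, by 0.13 and -0.16, and its part in these differences was not tested.

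Some peaks of the loci were in a single hypoxic library and in no consensus peak, with no overlapping peak in normoxia, so they entered no comparison. Their summit pileups were 17 at Dbp in 1% O2 replicate 1, 19 at Bhlhe41 in 1% O2 replicate 2, 20 and 22 at Per2 in <0.1% O2 replicate 1, and 31 at Cry2 in the same library.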

How the results depend on the processing

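The counts of called member peaks were small and moved with most settings, here written as lower or higher at 1% and <0.1% O2. Ranking the summit pileup gave 1 promoter peak higher at 1% O2 and 0 others lower at <0.1% O2. Ranking the -log10 q gave 1 promoter higher at 1% O2, and 2 promoters and 1 other lower at <0.1% O2. Ranking within whole lists gave 0 promoters lower at either level, 8 others higher at 1% O2 and 4 promoters higher at <0.1% O2. A limit of 5 points gave 4 promoters higher at <0.1% O2, and one of 20 points gave 0 promoters lower at either level, 0 higher at <0.1% O2, and 1 other lower and 3 higher at <0.1% O2. Peaks with a -log10 q of at least 10 gave 0 promoters lower at either level, 1 promoter higher and 1 other lower at <0.1% O2, and 1 peak lost at 1% O2. A promoter window of 500 bp gave 1 promoter higher at <0.1% O2. Within 5 kb of the genes, 2 others were higher at 1% O2, 1 lower and 3 higher at <0.1% O2, and 3 and 4 peaks were gained. Equal list lengths gave 3 gained and 2 lost at 1% O2 and 1 gained at <0.1% O2. Counting any shared stretch changed no count by over 1.5 times. The cause of these shifts was not tested, beyond the fewer peaks that stricter settings leave.

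Same-numbered libraries did not deviate together (correlations from -0.050 to 0.030 over 28432 peaks), so the numbers were not taken to pair the samples. The replicate block gave the main counts at 1% O2 (2 promoters and 1 other lower, 0 and 5 higher) and at <0.1% O2 (1 and 2 lower, 2 and 7 higher). Subtracting the GC trend gave 0 promoters lower and 1 higher at <0.1% O2, with and without the block.

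Without each replicate in turn, promoters lower ranged from 1 to 3 at both levels, promoters higher from 0 to 1 at 1% O2 and 1 to 3 at <0.1% O2, others lower from 1 to 2 and 2 to 3, others higher from 5 to 6 and 6 to 8, peaks gained from 6 to 9 and 7 to 10, and peaks lost from 0 to 2 at both. Without normoxic replicate 2, 3 promoters were lower at <0.1% O2, and without <0.1% O2 replicate 2, 1 was higher. Without 1% O2 replicate 2, 2 peaks were lost at 1% O2, and without normoxic replicate 1, 2 were lost at <0.1% O2. Calls were also added for Cry2 at 2.68 kb (10.4 points) and Bhlhe41 at 9.56 kb (10.9) at <0.1% O2 without its replicate 2, and for Nr1d1 at -8.17 kb (10.6) at 1% O2 without normoxic replicate 2. Per1 at 16.8 kb was added as lower without normoxic replicate 2 (-12.3 and -17.6 points) and, at <0.1% O2, without its replicate 1 (-21.4). Among neighbours, the Mrps21 peak was added as lower without normoxic replicate 1 (-10.9 and -20.7) and without <0.1% O2 replicate 1 (-19.9), Mir7000 as lower at 1% O2 without its replicate 2 (-10.7), and Hes6 and Ilkap as higher at 1% O2 without its replicate 1 (14.6 and 18.8) or normoxic replicate 2 (10.7 and 10.9).

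Among peaks called by either rank at that level, the direction turned under the pileup rank for Bhlhe40 at 7.86 kb (5.41 and 4.65 points), Nr1d2 at <0.1% O2 (-0.029, and -0.0024 as log2 less the median), the Msl1 promoter at <0.1% O2 (-1.82) and the Mir7000 promoter at 1% O2 (10.4). Uncalled peaks that turned are not listed, among them the Per2 promoter (8.22 and 9.22 points). As log2 normalised pileup less the median, strongest promoter peaks not called by fold rank also took the other sign, namely Per2 (0.25 and 0.28) and Cry2 (0.11 and 0.25) at both levels, Per1 (0.17), Ciart (0.16) and Dbp (0.18) at 1% O2 and Nr1d1 (0.38) at <0.1% O2. Counting a turned direction on this scale only for called peaks was settled after seeing the data. Pileups under about 50 fragments, as at Per1 -14.8 kb, and low folds, as at Per1 3.66 kb, limit what can be said of single gained peaks.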

Other observations

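The windows around the clock genes also held promoter peaks of other genes, 12 of them ranked. By fold rank 0 of these 12 were called lower (16.5% of all promoter peaks) and 2 higher (11.9%) at 1% O2, and 2 lower (26.5%) and 3 higher (12.0%) at <0.1% O2. Hes6, a gene of the HES family of repressors next to Per2, was called higher by both ranks at <0.1% O2 (16.0 and 13.9 points), with normalised pileups of 43.5 and 58.5 in normoxia, 90.5 and 75.5 at 1% O2 and 61.2 and 62.9 at <0.1% O2. Ilkap, farther from Per2 on the same side, was called lower by both ranks at <0.1% O2 (-13.1 and -10.4 points), and its fold rank call was lost within whole lists (-6.33), with the GC trend subtracted (-6.69) and without <0.1% O2 replicate 2 (-9.90). The peak shared by Rpl18 and Sphk2, in the Dbp window at 10.2 kb, was called higher by fold rank at both levels (18.1 and 22.5 points) and at neither by pileup rank. At Aloxe3, in the Per1 window, the pileup rank rose by 31.5 points at <0.1% O2, with pileups of 38 and 51 at 21% O2 and 122 and 108 at <0.1% O2, while its fold rank stayed under 4 in all 6 libraries. The promoters of Mterf2 (Cry1 window), Vamp2 (Per1 window) and Aph1a and BC028528 (Ciart window) were not called by either rank at either level. The peak shared by Mrps21 and C920021L13Rik, next to Ciart, was called lower by pileup rank at both levels (-10.3 and -15.6 points).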
